A study of Mus musculus with 20 samples.

Results

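Amygdala from mice whose neurons had lost the corepressor SMRT was compared with control amygdala by RNA sequencing. The comparison holds 7 libraries, 3 labelled SMRT-KO and 4 labelled control, of 10 amygdala libraries and 20 libraries in all. The other amygdala libraries are 3 labelled NCoR1-KO, which served for the spread and for a direct comparison of the knockouts. Of 23412 genes listed, the 14606 with at least 1 TPM (a unit scaled for transcript length and library total) in at least 3 of the 10 amygdala libraries were tested. SMRT-KO mice carried floxed SMRT alleles with the pan-neuronal driver Snap25-IRES2-cre, a Cre placed in the Snap25 locus. NCoR1-KO mice carried floxed NCoR1 alleles with the same driver. Controls are named only as such: whether they carried Cre or floxed alleles is not given. Tissue of every group was taken at postnatal day 21, and hippocampus libraries of the same 3 genotypes exist.

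SMRT and its relative NCoR1 are corepressors. They bind thyroid hormone receptors, retinoic acid receptors and other nuclear receptors when these lack hormone, and hold the histone deacetylase HDAC3 at the bound genes, which keeps those genes low until hormone arrives. In the young brain, thyroid hormone and retinoic acid steer the maturation of neurons and of myelin. The design asked what neurons lose or gain in gene expression without either corepressor.

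The amygdala libraries each had 14153 to 14509 genes at 1 TPM or more. TPM do not carry read depth, so the counting error behind a value is unknown. Neuronal markers were present at high levels: Syt1, a calcium sensor of vesicle release, was at 1102 to 1232 TPM in SMRT-KO and 981 to 1206 TPM in control libraries, and Rbfox3, the neuronal nuclear antigen, at 278 to 320 TPM in SMRT-KO and 256 to 278 TPM in control. Slc17a7, the vesicular glutamate transporter of cortical-type neurons, was at 1282 to 1340 TPM in SMRT-KO and 999 to 1574 TPM in control. Gad1, which makes GABA, was at 316 to 353 TPM in SMRT-KO and 279 to 376 TPM in control. Slc17a6, the vesicular glutamate transporter of subcortical neurons, was at 36.5 to 42.6 TPM in SMRT-KO and 42.9 to 63.3 TPM in control, with groups apart (log2 difference -0.33 ± 0.12, limma adjusted p = 0.143). Rn45s, the precursor of ribosomal RNA, made up 1.77% to 3.26% of a SMRT-KO library and 1.25% to 2.15% of a control library, a log2 difference of 0.57 ± 0.22 (SE) that did not pass (limma adjusted p = 0.164).

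A small set of genes passed between SMRT-KO and control, and its size depended on the threshold and the settings. Of the 14606 tested genes 16 passed limma's test at an adjusted p under 0.05 (0.110%), 7 higher (0.0479%) and 9 lower (0.0616%) in SMRT-KO. The genes that rose include subunits and partners of neurotransmitter receptors and ion channels (Kctd16, Grm3, Kcnh5), adhesion proteins of the cadherin superfamily (Clstn2, Fat3) and the nuclear receptor Rora. Those that fell include Snap25, the riboflavin-binding protein gene Rtbdn and Tle2, itself a corepressor. All SMRT-KO libraries lay outside the control range for each of the 14 named genes, beside 5.85% of all tested genes above it and 12.2% below. A small p in these same libraries favours such separation, so it adds no support to the calls. The nearest gene that missed the threshold was at an adjusted p of 0.0562.

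The calls sit close to the threshold: 231 genes had an adjusted p between 0.05 and 0.06, and 3208 (22.0%) had an unadjusted p under 0.05, 1230 higher (8.42%) and 1978 lower (13.5%). In 855 genes (5.85%) every SMRT-KO library lay above every control, and in 1778 (12.2%) below. At an adjusted p under 0.10, a threshold chosen after the data were seen, 1027 genes (7.03%) passed, 428 higher (2.93%) and 599 lower (4.10%). Single libraries moved the count of 16: it was 698 without SMRT-KO 1, 1 without SMRT-KO 2, 0 without SMRT-KO 3, 57 without control 3, 1 without control 1, 2 or 4, and 2 without NCoR1-KO 1, 2 or 3. Snap25 passed in 9 of these 10 fits and each of the other 13 named genes in 2 of 10, namely those without SMRT-KO 1 and without control 3.

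**Figure D1:**
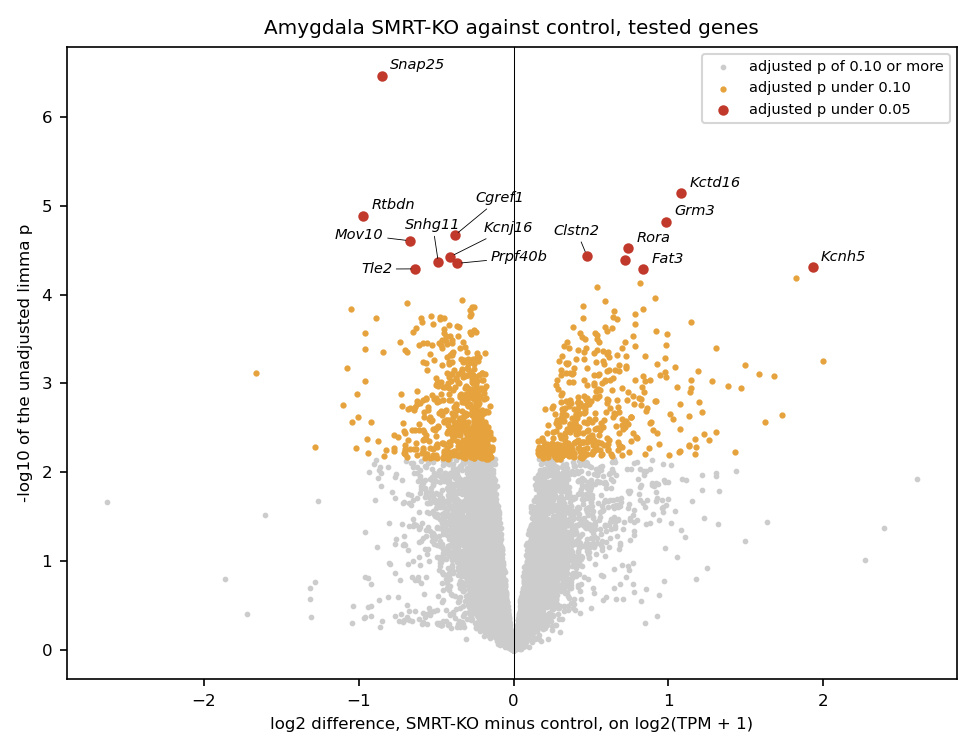
Log2 difference between SMRT-KO and control (x axis, on log2(TPM + 1)) against the negative log10 of the unadjusted limma p (y axis) for the tested genes. Red points passed an adjusted p of 0.05, orange points 0.10, and Snap25 stands highest.

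Snap25 encodes a SNARE protein that drives the fusion of synaptic vesicles, and its locus (GRCm38 chromosome 2, 136713453 to 136782428, plus strand) carries the driver. It was at 1053, 1207 and 1114 TPM in SMRT-KO 1 to 3, against 1927, 2154, 1825 and 2228 TPM in controls 1 to 4. The groups are well apart, with the SMRT-KO mean at 55.3% of control. The log2 change was -0.85 ± 0.08 (SE) with limma's adjusted p = 0.00507, and a two-sided exact permutation test gave p = 0.0286, the smallest that 35 arrangements allow. Snap25 was at 1201, 1123 and 1228 TPM in NCoR1-KO 1 to 3, so the level was low in both knockouts, which share the driver. SMRT-KO and NCoR1-KO differed by -0.08 ± 0.08 on the log2 scale (limma adjusted p = 0.568). Since the controls' alleles are not given, an effect of the driver allele and of the loss of SMRT on Snap25 cannot be told apart, and in bulk tissue fewer cells of a type and less RNA per cell cannot be told apart either. Within 10 Mb of Snap25, 0 of 127 other tested genes passed at 0.05 and 10 (7.87%) at 0.10, beside 7.03% of all tested genes.

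Ncor1, the gene of the other corepressor (chromosome 11, 62316426 to 62458541, minus strand), was at 124, 114 and 118 TPM in SMRT-KO 1 to 3, against 71.3, 117, 119 and 127 TPM in controls 1 to 4. The groups overlap, and control 1 is low. The log2 difference was 0.16 ± 0.16 (limma adjusted p = 0.612, two-sided exact permutation p = 0.857), and -0.03 without control 1.

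Among the genes that rose, Kctd16 (chromosome 18, 40256962 to 40531630, plus strand) encodes an auxiliary subunit of the GABA-B receptor. It was at 39.9, 40.7 and 46.7 TPM in SMRT-KO, against 15.8, 21.5, 24.2 and 17.4 TPM in control. The lowest SMRT-KO library lay far above the highest control, and the mean was 215% of control. The log2 change was 1.08 ± 0.13 (SE; limma adjusted p = 0.0350).

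Grm3 encodes a metabotropic glutamate receptor that lowers cyclic AMP. It was at 64.3, 88.7 and 78.8 TPM in SMRT-KO, against 34.9, 31.6, 43.9 and 44.4 TPM in control. The groups did not overlap, with a log2 change of 0.98 ± 0.13 (adjusted p = 0.0441). Kcnh5, a voltage-gated potassium channel of the ether-a-go-go family, showed the largest fold change of the named genes that passed, at 15.9, 28.9 and 20.5 TPM in SMRT-KO, against 5.59, 2.91, 8.82 and 3.48 TPM in control. Its mean was 419% of control and its log2 change 1.93 ± 0.30 (adjusted p = 0.0473). Kcnh7, a channel of the same superfamily, came next to the threshold: it was at 22.5, 35.03 and 29.0 TPM in SMRT-KO, against 7.23, 6.58, 13.9 and 4.14 TPM in control, a log2 difference of 1.82 ± 0.29 that did not pass (adjusted p = 0.0562).

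Rora encodes a nuclear receptor of the ROR family, which binds DNA as a single molecule and drives neuronal maturation in the cerebellum. It was at 27.7, 33.6 and 31.8 TPM in SMRT-KO, against 19.6, 15.3, 20.3 and 17.6 TPM in control, a log2 change of 0.74 ± 0.11 (adjusted p = 0.0473). Its level in NCoR1-KO, 10.5, 8.51 and 9.34 TPM, lay below every control (log2 change -0.87 ± 0.11, adjusted p = 0.0162). Clstn2, a calsyntenin of synapses, was at 60.3, 69.3 and 58.0 TPM in SMRT-KO, against 42.6, 43.3, 45.3 and 47.6 TPM in control (log2 change 0.47 ± 0.07, adjusted p = 0.0473). Fat3, a giant cadherin that shapes dendrites, was at 25.4, 26.3 and 27.4 TPM in SMRT-KO, against 13.2, 11.8, 18.8 and 14.3 TPM in control (0.84 ± 0.13, adjusted p = 0.0473). Rgs4, which quenches signalling through G proteins, was at 403, 635 and 573 TPM in SMRT-KO, against 268, 287, 310 and 330 TPM in control, and did not pass (0.82 ± 0.13, adjusted p = 0.0572).

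Receptors such as the thyroid hormone receptor bind the hexamer AGGTCA, so the promoters of called genes were read for it on both strands. RefSeq promoter windows (GRCm38.p6, 300 bases across a start) matched 12 of the 14 named genes. Below are the windows of 3 genes that rose, none with the hexamer, and of the 2 genes that fell and hold it, with hexamers in capitals (TGACCT is AGGTCA on the other strand).

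Rora (chr9:68653536-68653835, plus strand): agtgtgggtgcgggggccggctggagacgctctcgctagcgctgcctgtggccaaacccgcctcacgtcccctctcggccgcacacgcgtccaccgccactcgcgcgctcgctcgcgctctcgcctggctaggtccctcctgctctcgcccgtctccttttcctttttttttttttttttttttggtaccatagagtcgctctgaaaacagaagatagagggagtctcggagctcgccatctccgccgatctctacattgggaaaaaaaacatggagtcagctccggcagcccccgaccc

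Grm3 (chr5:9725303-9725602, minus strand): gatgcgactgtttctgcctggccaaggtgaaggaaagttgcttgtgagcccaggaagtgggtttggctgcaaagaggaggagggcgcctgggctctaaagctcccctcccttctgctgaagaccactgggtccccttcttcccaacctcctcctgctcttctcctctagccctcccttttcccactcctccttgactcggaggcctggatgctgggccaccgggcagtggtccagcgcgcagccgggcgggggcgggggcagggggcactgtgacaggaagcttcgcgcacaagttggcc

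Kcnh5 (chr12:75177283-75177582, minus strand): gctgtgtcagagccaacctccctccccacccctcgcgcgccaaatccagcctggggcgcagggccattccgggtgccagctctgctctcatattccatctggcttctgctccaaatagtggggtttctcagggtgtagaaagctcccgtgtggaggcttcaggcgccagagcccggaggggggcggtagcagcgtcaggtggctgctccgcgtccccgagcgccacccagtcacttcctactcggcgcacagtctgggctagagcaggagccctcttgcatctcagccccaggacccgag

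Rtbdn (chr8:84946741-84947040, plus strand): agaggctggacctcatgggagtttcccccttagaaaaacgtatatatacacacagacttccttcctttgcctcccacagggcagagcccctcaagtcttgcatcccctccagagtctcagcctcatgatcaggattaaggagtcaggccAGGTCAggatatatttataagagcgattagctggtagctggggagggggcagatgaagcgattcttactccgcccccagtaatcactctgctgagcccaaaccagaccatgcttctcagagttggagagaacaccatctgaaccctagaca

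Kcnj16 (chr11:110967783-110968082, plus strand): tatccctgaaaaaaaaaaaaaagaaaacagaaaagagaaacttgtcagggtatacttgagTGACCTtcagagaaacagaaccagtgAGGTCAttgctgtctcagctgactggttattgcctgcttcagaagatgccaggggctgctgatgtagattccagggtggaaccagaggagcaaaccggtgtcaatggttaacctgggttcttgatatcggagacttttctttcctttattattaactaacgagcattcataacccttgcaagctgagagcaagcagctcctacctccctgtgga

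The Rtbdn window held 1 hexamer and the first of 4 Kcnj16 windows held 2, while no window of the other matched genes held one. Over all tested genes 12.4% of 13802 windows held it, over genes higher at an adjusted p under 0.10 13.0% of 447 and over genes lower 7.54% of 623. The classical element of thyroid hormone receptors, AGGTCA followed by 4 bases and AGGTCA again, was in 0 of the 13802. An exact copy was in only 5 of all 32851 promoter windows, so its absence here says nothing about targets of the receptors. A match is a description of the letters in a window and not a bound site.

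Among the genes that fell, Rtbdn, known from the retina for binding riboflavin, had the largest log2 change of those named. It was at 1.83, 1.26 and 1.16 TPM in SMRT-KO, against 4.01, 4.17, 3.10 and 3.59 TPM in control, with the mean at 38.1% of control. The log2 change was -0.97 ± 0.13 (adjusted p = 0.0441) on a scale that understates low genes. Mov10, an RNA helicase that acts in small RNA silencing and against retroelements, was at 9.0, 7.15 and 7.76 TPM in SMRT-KO, against 13.7, 14.0, 11.5 and 13.8 TPM in control (-0.67 ± 0.10, adjusted p = 0.0473). Tle2, a corepressor of the Groucho family, was at 10.7, 8.34 and 8.83 TPM in SMRT-KO, against 17.2, 14.99, 13.7 and 14.0 TPM in control (-0.64 ± 0.10, adjusted p = 0.0473).

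The other named genes that fell had SMRT-KO means between 71.4% and 77.4% of control. Snhg11, a long non-coding RNA of neurons that hosts small nucleolar RNAs, was at 1234, 1086 and 1031 TPM in SMRT-KO, against 1733, 1510, 1556 and 1455 TPM in control (-0.49 ± 0.07). Kcnj16, an inward rectifier potassium channel, was at 24.6, 25.5 and 25.6 TPM in SMRT-KO, against 36.0, 34.99, 31.6 and 32.8 TPM in control (-0.41 ± 0.06). Cgref1, a secreted calcium-binding protein, was at 35.5, 33.5 and 36.0 TPM in SMRT-KO, against 46.2, 46.9, 46.1 and 44.0 TPM in control (-0.38 ± 0.05). Prpf40b, a splicing factor, was at 43.7, 39.1 and 42.4 TPM in SMRT-KO, against 56.8, 51.8, 52.2 and 54.8 TPM in control (-0.36 ± 0.06). Each of these 4 had a limma adjusted p of 0.0473, and in each the groups lay apart with narrow spread.

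**Figure D2:**
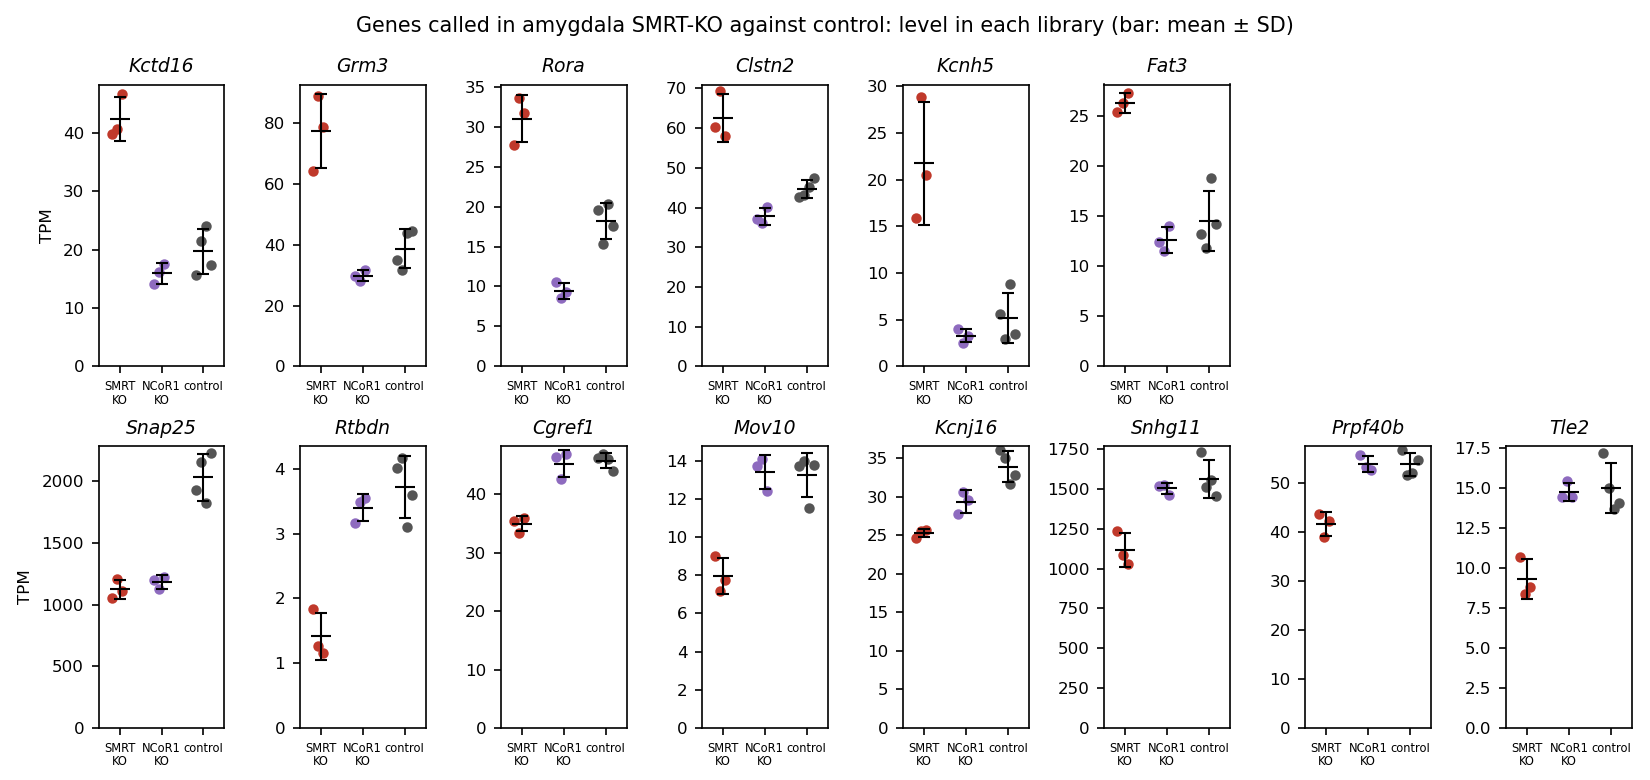
TPM (y axis, from 0) in each amygdala library of the named genes that passed, with SMRT-KO, NCoR1-KO and control libraries as points and the mean ± SD as bars. In the top row SMRT-KO lies above control and in the bottom row below it, while Snap25 is low in both knockouts and Rora is low in NCoR1-KO.

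Most potassium channels were above control. Of 51 tested, 37 were above, beside 42.0% of all tested genes, and their median log2 difference was 0.18, beside -0.03 over all tested genes. Kcnh5 rose and Kcnj16 fell at 0.05, and 14 were higher and 1 lower at 0.10, beside 2.93% of all tested genes higher and 4.10% lower. Kcnma1, the large-conductance calcium-activated channel, was at 115, 113 and 112 TPM in SMRT-KO, against 66.9, 72.4, 90.1 and 61.8 TPM in control (log2 difference 0.64 ± 0.11, adjusted p = 0.0572). Kcna1, an axonal channel, was at 66.2, 94.9 and 83.3 TPM in SMRT-KO, against 53.3, 48.0, 56.7 and 55.6 TPM in control (0.59 ± 0.11, adjusted p = 0.0572).

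Sodium and calcium channels gave 0 calls, with 20 of 33 above control and a median of 0.05. At 0.10 5 of these channels were higher and 1 lower, beside 2.93% and 4.10% of all tested genes. Their members of smallest p were subunits of calcium channels, Cacna1i (0.59 ± 0.10), Cacna2d3 (0.67 ± 0.12) and Cacnb4 (0.60 ± 0.11), each at an adjusted p of 0.0572. Of 24 glutamate receptors Grm3 rose, 6 were higher and 0 lower at 0.10, and the median was 0.04. Grin2a, an NMDA receptor subunit that increases as synapses mature, was at 48.2, 55.2 and 59.0 TPM in SMRT-KO, against 22.9, 23.7, 32.2 and 11.3 TPM in control (1.31 ± 0.26, adjusted p = 0.0572). The groups lay apart although the controls vary widely. Of 22 genes of GABA synthesis, transport and receptors 0 passed, with Gabrd, an extrasynaptic receptor subunit, nearest among those higher (0.65 ± 0.14, adjusted p = 0.0582).

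Genes known to be induced by thyroid hormone were mostly above control. Of 24 tested 17 were above, beside 42.0% of all tested genes. At 0.10 9 were higher and 0 lower, beside 2.93% and 4.10% of all tested genes, 0 passed at 0.05, and the median was 0.27. The list's summed level was 7694, 11133 and 8959 TPM in SMRT-KO, against 8247, 4806, 6732 and 5749 TPM in control. The groups therefore overlap for the list as a whole. Sema7a, a membrane semaphorin, was at 63.7, 119 and 91.8 TPM in SMRT-KO, against 45.3, 38.1, 40.9 and 54.1 TPM in control (0.99 ± 0.19, adjusted p = 0.0572). Homer1, a postsynaptic scaffold, was at 143, 198 and 163 TPM in SMRT-KO, against 87.1, 133, 100.3 and 110 TPM in control (0.64 ± 0.14, adjusted p = 0.0590). Nefm, the medium neurofilament chain, was at 173, 288 and 205 TPM in SMRT-KO, against 123, 119, 168 and 115 TPM in control (0.74 ± 0.17, adjusted p = 0.0631). In all of them SMRT-KO 2 was highest, and the same library had the highest summed level of oligodendrocyte genes, 12777 TPM, whose part in the result was not tested.

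Of 12 genes for thyroid hormone receptors and transport 6 were above control and 0 passed. Dio2, which activates the hormone, was at 70.1, 97.5 and 78.0 TPM in SMRT-KO, against 56.2, 64.0, 55.7 and 71.6 TPM in control (0.39 ± 0.12, adjusted p = 0.0955). Crym, which binds the hormone in the cytosol, was at 159, 120 and 136 TPM in SMRT-KO, against 182, 262, 202 and 188 TPM in control (-0.58 ± 0.16, adjusted p = 0.0806). Of 14 genes of retinoic acid metabolism, binding and receptors 8 were above control, 0 passed at 0.05 and 0 at 0.10. Of 28 orphan and other nuclear receptors Rora rose and 0 fell. At 0.10 4 were higher and 1 lower, beside 2.93% and 4.10% of all tested genes. Among these receptors were Esrrg (0.66 ± 0.16, adjusted p = 0.0726) and Nr2f2 (-1.01 ± 0.29, adjusted p = 0.0936).

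Of 18 tested partners of SMRT in the corepressor complex 0 passed at 0.05. Below control were 13, beside 58.0% of all tested genes, and the median of -0.04 was close to the -0.03 of all tested genes. At 0.10 0 were higher and 3 lower, beside 4.10% of all tested genes lower. Hdac3, the deacetylase of the complex, was at 120, 112 and 114 TPM in SMRT-KO, against 137, 126, 132 and 131 TPM in control (-0.19 ± 0.05, adjusted p = 0.0658). The others were Sin3b (-0.33 ± 0.08, adjusted p = 0.0785) and Hdac7 (-0.30 ± 0.08, adjusted p = 0.0824). Chromatin regulators of neurons were below control in 27 of 33 with a median of -0.10, and 11 of 33 had every SMRT-KO library below every control, beside the 12.2% of all tested genes. Cytosolic ribosomal protein genes were below control in 27 of 28, beside 58.0% of all tested genes, with a median of -0.08. Only 1 of them was lower at 0.10, a share near that of all tested genes.

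Of 32 cadherins and protocadherins Clstn2 and Fat3 rose, with 16 above control and a median of 0.01. At 0.10 5 were higher, among them Cdh6 (0.85 ± 0.17, adjusted p = 0.0572), and 1 lower, Celsr3 (-0.50 ± 0.11, adjusted p = 0.0591). Shares over all tested genes at 0.10 were 2.93% higher and 4.10% lower. Of 45 genes of axon guidance and extracellular matrix 0 passed, and 6 were higher and 0 lower at 0.10, with the ephrin receptor Epha4 of smallest p (0.52 ± 0.12, adjusted p = 0.0604). Of 28 tested SNARE genes and regulators Snap25 alone passed, and the median was -0.002. At 0.10 4 were higher and 2 lower, Snap25 included, beside the 2.93% and 4.10% of all tested genes. Napb, which helps to recycle SNARE complexes, was at 400, 333 and 371 TPM in SMRT-KO, against 432, 498, 452 and 490 TPM in control (-0.35 ± 0.08, adjusted p = 0.0648). On the other side were Stxbp5l, a tomosyn that binds SNARE proteins (0.31 ± 0.08, adjusted p = 0.0726), and the complexin gene Cplx3 (0.93 ± 0.25, adjusted p = 0.0826), both with groups apart.

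Among signalling genes, Crhr1, the receptor of corticotropin-releasing hormone in stress circuits of the amygdala, was at 22.5, 33.1 and 24.7 TPM in SMRT-KO, against 16.5, 13.3, 13.1 and 17.4 TPM in control (0.78 ± 0.14, adjusted p = 0.0572). It headed 35 tested neuropeptide genes, of which 22 were above control and 0 passed. Adora1, the inhibitory adenosine receptor, headed 27 monoamine, acetylcholine and related receptors at 121, 160 and 135 TPM in SMRT-KO, against 97.8, 83.3, 80.6 and 102 TPM in control (0.60 ± 0.12, adjusted p = 0.0572). Of that list 18 were above control, with a median of 0.23. Of the immediate early genes, which report recent neuronal activity, 9 of 19 were above control and the median was -0.01. Ier5 was the 1 member higher at 0.10, beside 2.93% of all tested genes. Its level was 32.1, 59.3 and 37.0 TPM in SMRT-KO, against 22.2, 22.1, 19.8 and 21.6 TPM in control (0.92 ± 0.17, adjusted p = 0.0572). Oxidative phosphorylation (28 genes) and interferon response and antigen presentation (24 genes) had 0 members past 0.05 and 0 past 0.10.

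**Figure D3:**
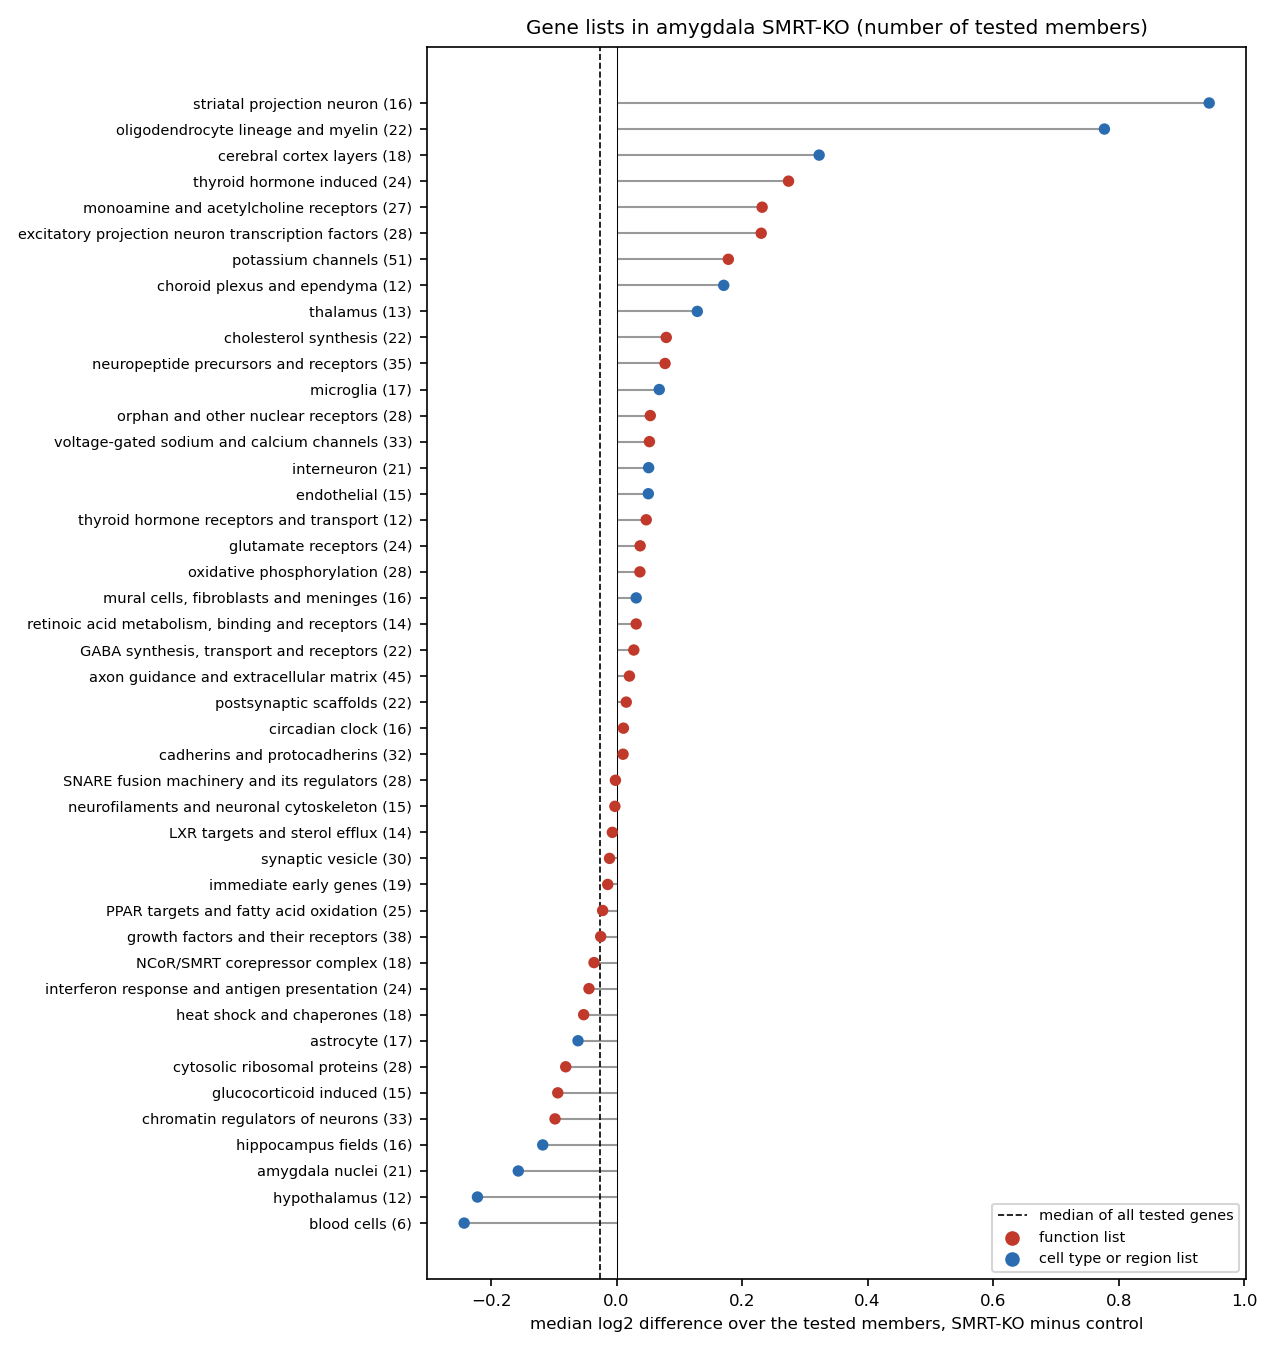
Median log2 difference, SMRT-KO minus control, over the tested members of each gene list (x axis), with lists as rows and the number of tested members in parentheses. Red points are function lists, blue points cell type or region lists, and the dashed line marks the median of all tested genes at -0.03.

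Levels of markers of neighbouring regions and of glia also differed between the groups and among the libraries of a group. All 16 tested markers of striatal projection neurons were above control, with a median of 0.94 and 0 past 0.05. At 0.10 2 of them were higher, beside 2.93% of all tested genes. The summed level of the striatal markers was 1290, 1247 and 1950 TPM in SMRT-KO, against 740, 471, 1415 and 753 TPM in control. Control 3 reached the SMRT-KO range and control 2 was lowest.

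Oligodendrocyte and myelin genes were above control in 20 of 22, with a median of 0.78 and 0 past 0.10. Their summed level was 8537, 12777 and 9446 TPM in SMRT-KO, against 10109, 3039, 7581 and 4728 TPM in control, so the groups overlap. Cspg4, a marker of the precursor cells, lay on the other side (-0.28 ± 0.09, adjusted p = 0.103).

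Cortical layer markers were above control in 13 of 18 with a median of 0.32, and their scores did not overlap between groups. Nor did those of the potassium channel, orphan receptor, chromatin regulator and corepressor complex lists. At 0.10 5 cortical markers were higher and 0 lower, beside 2.93% and 4.10% of all tested genes. A score is the list's median of log2 values, each taken relative to that gene's mean over the 10 libraries. For cortical layers it was 0.16, 0.41 and 0.25 in SMRT-KO, against -0.10, -0.25, -0.13 and 0.08 in control. Tle4 (0.46 ± 0.09, adjusted p = 0.0572) and Fezf2 (0.60 ± 0.14, adjusted p = 0.0662), transcription factors of deep-layer neurons, had the smallest p.

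The tissue's own markers lay on the other side. Of 21 amygdala markers 4 were above control, with a median of -0.16, 0 past 0.10 and a score of 0.06, -0.37 and -0.07 in SMRT-KO, against -0.04, 0.06, 0.19 and -0.11 in control. SMRT-KO 2 was lowest. Hypothalamus markers were above control in 2 of 12, with a median of -0.22. At 0.10 2 were lower, beside 4.10% of all tested genes: Hap1 (-1.003 ± 0.25, adjusted p = 0.0741) and Magel2 (-1.05 ± 0.27, adjusted p = 0.0769). Thalamus markers were above control in 7 of 13, with a median of 0.13. Of these 1 passed at 0.05, higher in SMRT-KO, beside 0.0479% of all tested genes. At 0.10 3 thalamus markers were higher and 0 lower, beside 2.93% and 4.10% of all tested genes. Astrocyte (17 genes), microglia (17 genes) and endothelial (15 genes) lists had 0 members past 0.10 and medians of -0.06, 0.07 and 0.05. Ttr, the transthyretin of choroid plexus, was at 771, 88.3 and 583 TPM in SMRT-KO, against 1054, 14.7, 64.4 and 22.4 TPM in control, which follows no group.

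**Figure D4:**
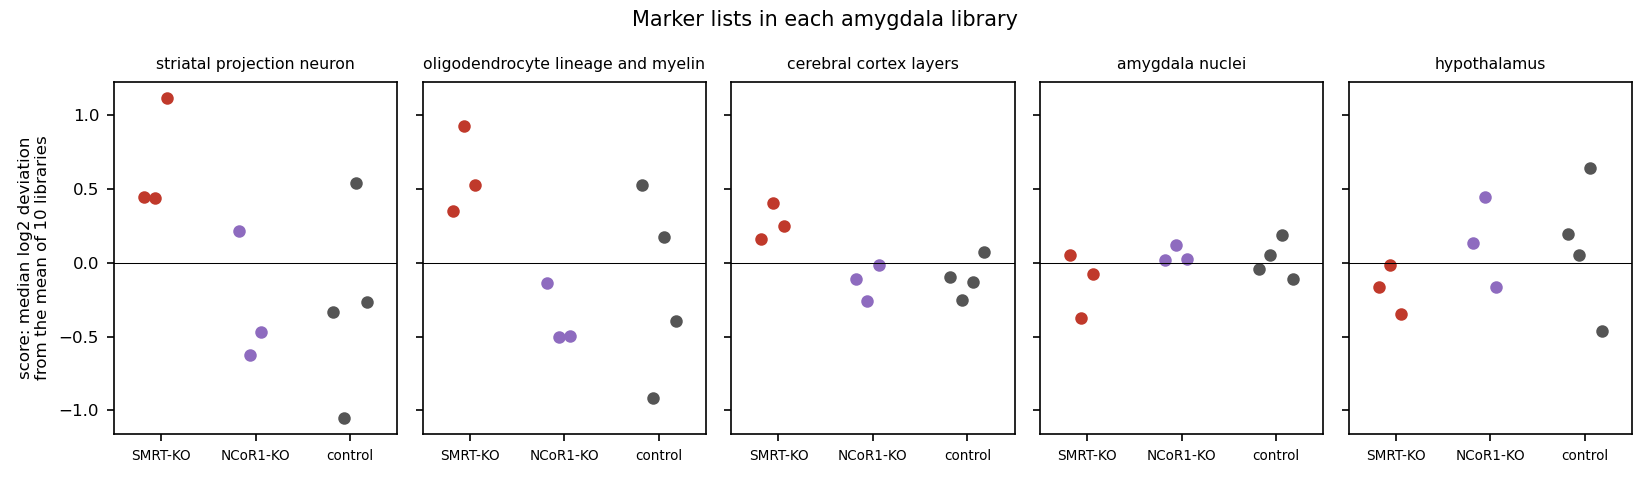
Score of 5 marker lists in each amygdala library (y axis, log2 scale, median deviation of the list's genes from their mean over the 10 libraries), with SMRT-KO, NCoR1-KO and control libraries as points. SMRT-KO scores for cortical layers lie above all controls, while those for striatal projection neurons and oligodendrocytes overlap with control 3 and control 1.

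With a library's striatal score as a covariate, an alternative chosen after the data were seen, 0 genes passed, and 0 passed with the oligodendrocyte score. As examples, the log2 change of Kctd16 was 1.02 with the striatal and 1.20 with the oligodendrocyte score, beside 1.08 without a score. Grm3 was at 0.78 and 0.85, beside 0.98, and Snap25 at -0.77 and -0.78, beside -0.85. Kcnh5 was at 1.35 and 1.305 and Rora at 0.53 and 0.52, both smaller than the 1.93 and 0.74 without a score. Beyond these fits, the part of the marker levels in the calls was not tested.

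More genes passed between SMRT-KO and NCoR1-KO amygdala than between either and control. In the direct comparison 1679 genes passed (11.5%), 944 higher (6.46%) and 735 lower (5.03%) in SMRT-KO, beside 60 (0.411%) for NCoR1-KO against control. The count was 243 without SMRT-KO 3 and 333 without SMRT-KO 2. It was 646 without NCoR1-KO 1, 334 without NCoR1-KO 2 and 892 without NCoR1-KO 3, and 1630 (798 higher and 832 lower) with the trend with transcript length removed, alternatives added after the data were seen. The named genes of smallest p had means above control in SMRT-KO and below it in NCoR1-KO, as Rora did. Choice by that p favours genes on opposite sides of control, so their pattern cannot stand for the genes at large. Rora was 1.62 ± 0.12 higher in SMRT-KO than in NCoR1-KO on the log2 scale (adjusted p = 0.000223). Kcnma1 was 113 ± 1.47 TPM in SMRT-KO (SD, n = 3), 33.2 ± 3.95 TPM in NCoR1-KO (SD, n = 3) and 72.8 ± 12.3 TPM in control (SD, n = 4), and differed by 1.74 ± 0.12 between the knockouts (adjusted p = 0.000223).

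Bmpr2, a receptor for bone morphogenetic proteins, was at 78.9, 79.6 and 85.4 TPM in SMRT-KO, against 9.32, 13.9 and 14.6 TPM in NCoR1-KO, a difference of 2.62 ± 0.23 (adjusted p = 0.00086). Controls, at 49.1, 46.8, 68.8 and 32.4 TPM, lay between. In hippocampus Bmpr2 varied widely within a group, at 47.7, 7.24 and 3.67 TPM in SMRT-KO, against 66.7, 40.7, 10.8 and 36.7 TPM in control. Kcnq3, a subunit of the M-type potassium channel, differed by 1.58 ± 0.14 (adjusted p = 0.00086). Dgki, a diacylglycerol kinase, differed by 1.87 ± 0.17 and Ptpn4, a tyrosine phosphatase, by 2.13 ± 0.19 (both adjusted p = 0.000878). In hippocampus SMRT-KO, Kcnq3 was at 60.9, 14.8 and 11 TPM and Dgki at 22.6, 6.71 and 4.2 TPM. Ptpn4 was at 21.5, 10.1 and 3.3 TPM there. Like Bmpr2 and Kcnma1, these genes were highest in SMRT-KO 1 and control 1 of their hippocampus groups, while Rora was highest in SMRT-KO 2. The part of such variation between libraries in the differences between the knockouts was not tested. Of the named genes that passed against control, Snap25 (adjusted p = 0.568) and Kcnj16 (adjusted p = 0.0617) did not differ past the threshold between the knockouts. The other 12 did, beside 11.5% of all tested genes. Since all were chosen by the same SMRT-KO libraries, that count cannot show how far the knockouts differ. Kcnj16 was at 27.7, 30.6 and 29.6 TPM in NCoR1-KO, between SMRT-KO and control. Genes with the longest 20% of transcripts had a median log2 difference from control of -0.01 in SMRT-KO and -0.10 in NCoR1-KO, and in NCoR1-KO 1 their median deviation lay 0.23 below that of the shortest 20%. The 3' untranslated regions of Kcnma1, Rora, Bmpr2, Kcnq3 and Ptpn4 have 7733, 9288, 8532, 8787 and 7367 bases. That of Dgki has 1357, and the median over all tested genes is 1173. The part of this length in the differences of these genes was not tested.

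**Figure D5:**
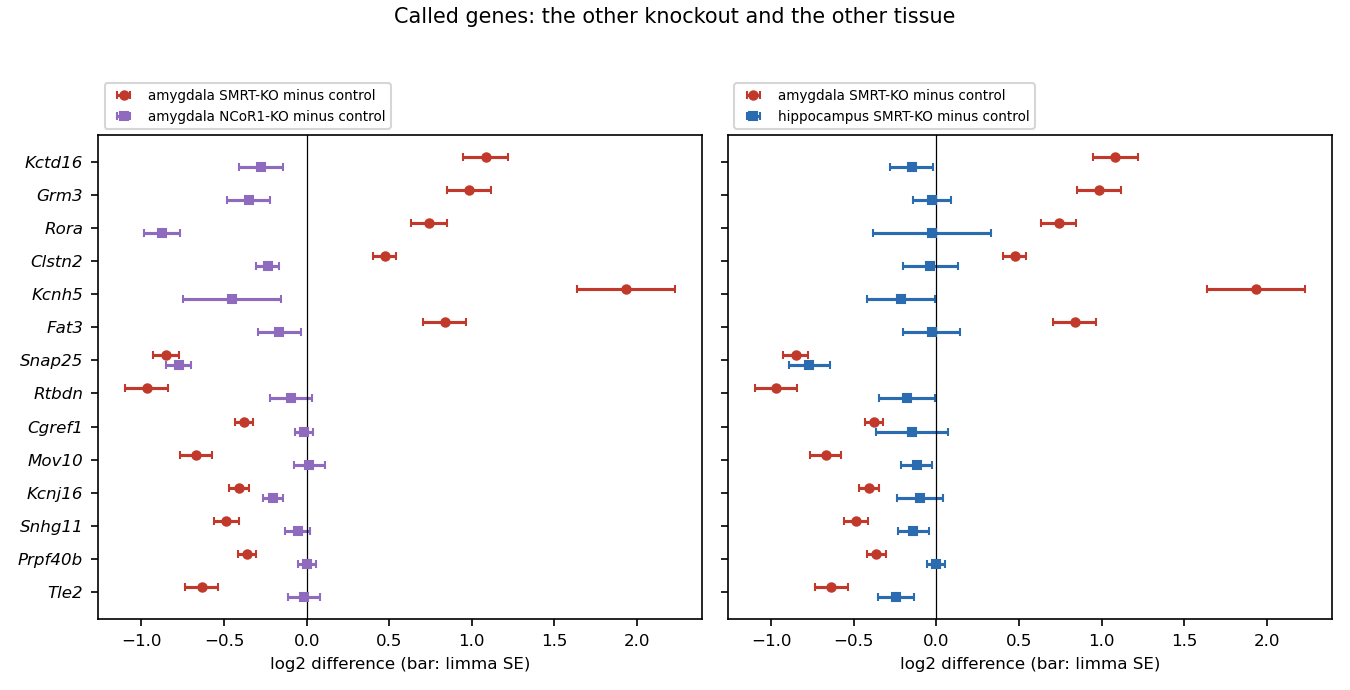
Log2 difference from control with limma's standard error (x axis) for the named genes that passed in amygdala SMRT-KO (rows), beside NCoR1-KO in amygdala (left) and SMRT-KO in hippocampus (right). Snap25 is lower in all 3 comparisons, and each of the other genes lies closer to 0 in hippocampus than in amygdala SMRT-KO. The genes were chosen for passing in amygdala, and the test of the difference between tissues passed for 0 of 14210 genes.

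In hippocampus the same comparison of SMRT-KO with control gave 0 genes of 14501 past 0.05, 813 (5.61%) at an unadjusted p under 0.05 and a smallest adjusted p of 0.779. Of the 14 named genes that passed in amygdala, Snap25 alone lay apart from control in hippocampus too, at 1247, 1090 and 1699 TPM in hippocampus SMRT-KO, against 2236, 2204, 2329 and 2249 TPM in control (log2 difference -0.77 ± 0.12). Kctd16 was at 15.4, 11.7 and 12.6 TPM in hippocampus SMRT-KO, against 18.2, 15.4, 13.2 and 12.7 TPM in control. Grm3 was at 24.2, 22.3 and 22.4 TPM in hippocampus SMRT-KO, against 25.0, 18.8, 24.2 and 26.4 TPM in control. Both overlapped between the groups there. Tle2, which fell in amygdala, was at a log2 difference of -0.24 ± 0.11 in hippocampus. Among the list members named above, Nefm, Sema7a and Crhr1 lay above and Sin3b below every control in both tissues. In amygdala alone 5.85% of all tested genes lay above and 12.2% below every control. The share of all tested genes apart in hippocampus, or in both tissues, was not counted. Neither these examples nor the 14 named genes can therefore be set against it. Nefm was at 203 ± 26.8 TPM in hippocampus SMRT-KO and 145 ± 8.80 TPM in control (SD, n = 3 and 4; log2 difference 0.48 ± 0.08, limma adjusted p = 0.779).

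Whether the effect differed between tissues was tested over all 20 libraries together. Of 14210 genes 0 passed, 1257 (8.85%) had an unadjusted p under 0.05, and the smallest adjusted p was 0.120, for Kctd16. The SMRT-KO effect on Kctd16 was 1.23 ± 0.20 larger in amygdala on the log2 scale, on Kcnh5 2.15 ± 0.39 and on Grm3 1.01 ± 0.19 (adjusted p = 0.167 for both). Next were Ngef, a guanine exchange factor downstream of ephrin receptors (0.99 ± 0.18, adjusted p = 0.167), and the Groucho corepressor gene Tle4 (0.56 ± 0.11, adjusted p = 0.204).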

How the data were processed

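Per the labels' protocols, a lipid tissue RNeasy kit gave total RNA and a TruSeq stranded mRNA kit the libraries. The deposited tables hold gene-level TPM made by the authors, 1 table per tissue. The submitters' processing notes name the build mm10 and, with no role or order, RSEM 1.3.3, STAR 2.5.3a, fastp 0.21.0 and bcl2fastq. The gene models used are not given in the sources used here. All columns matched labelled samples (0 belonged to others).

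The scale was log2(TPM + 1), fitted with limma 3.58.1 in R 4.3.3. Genes with at least 1 TPM in at least 3 of the 10 amygdala libraries entered a linear model with 3 genotypes as groups, moderated variances and a variance trend. A gene was called at a Benjamini-Hochberg adjusted p under 0.05 over all tested genes. Every adjusted p in the text is from limma. Fold changes on this scale understate low genes and carry limma's SE. The script was tested on simulated data with known changes. Precision rests on 3 and 4 libraries, since TPM hold no depth. The labels do not say whether libraries come from separate animals, so the p-values describe spread that may be technical.

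Snap25 and Ncor1 were also compared by two-sided exact permutation tests. Positions are from GENCODE M21 (GRCm38): of 23412 symbols 21737 matched a symbol, 1275 an older symbol, 63 several genes and 337 none. The compared groups and the 44 gene lists, written from general knowledge, were chosen with earlier results of these data known.

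The named genes are all that passed with groups apart (up to 12 a direction), then genes of smallest p up to 8 a direction, up to 3 members of smallest p from a list, up to 6 genes in both tissues, and up to 6 each for the differences between tissues and between knockouts. Snap25, Ncor1 and Rn45s are always named. Predicted genes and Xist, Tsix and Y genes are counted without a name, which applies to 1 called gene. The check of the targeted gene, the 1 further called gene, is not reported here or drawn. Genes given as examples from a list are chosen from those the rule allows. Alternatives covered the pseudocount, filters, scaling, variance model, library weights, replicate block and each left-out library. A threshold of 0.10, removal of the trend with transcript length and 2 marker scores as covariates were added after the data were seen.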

Additional observations from a re-analysis of the deposited data

Results flagged for a closer look

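In 70 groups of 4 control libraries (26 named genes and 44 lists), 3 held a library that stood far from the other 3 for the range they span, and chance gives about 1 in 20. Mov10 was at 11.5 TPM in control 3, with a gap to the nearest control of 0.882 of the range. Ncor1 was at 71.3 TPM in control 1, with a gap of 0.834 of the range, and its difference from control has another sign without that library. The score of the neurofilament and neuronal cytoskeleton list was 0.010 in control 4, with a gap of 0.943 of the range.

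Fgf14, whose protein binds voltage-gated sodium channels, lay above every control in amygdala SMRT-KO, at 48.9, 55.3 and 55.1 TPM, against 37.2, 40.1, 46.6 and 41.6 TPM in control. In hippocampus SMRT-KO it lay below every control, at 28.0, 21.5 and 25.0 TPM, against 30.3, 33.5, 30.2 and 30.8 TPM in control. The log2 difference was 0.36 ± 0.09 in amygdala and -0.33 ± 0.10 in hippocampus, and the effect was 0.68 ± 0.13 larger in amygdala. The test of that difference did not pass (limma adjusted p = 0.219).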

How the results depend on the processing

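The count of 16 genes called in amygdala SMRT-KO against control depended strongly on the settings. It was 14 with a pseudocount of 0.1, 2 with no filter, 143 with a mean of at least 5 TPM, 2 with only the 7 libraries compared, 14 after quantile normalization (9 higher and 5 lower), 5 when rescaled without Rn45s, 3 without the variance trend and 1546 with array weights. Leaving out 1 library gave 0 to 698. Among the alternatives chosen after the data were seen, it was 1027 at a threshold of 0.10, 19 with the trend with transcript length removed (13 higher and 6 lower), 0 with the striatal score and 0 with the oligodendrocyte score. The cause of these shifts was not tested. Snap25 passed in 19 of 22 settings and the other named genes in at most 9, and no named gene but Ncor1 changed direction.

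Replicate numbers are not given as pairs, and same-numbered SMRT-KO and control libraries deviated from their group means with correlations of -0.17, -0.14 and 0.08. With the replicate block, which leaves out control 4, 4 genes passed (2 of the 16) against control and 847 against NCoR1-KO. Without 1 SMRT-KO or NCoR1-KO library the count against NCoR1-KO was 243 to 1849, and without 1 SMRT-KO library that of the difference between tissues was 0 to 1. It was 0 in all its other alternatives.

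The Ncor1 difference ranged from -0.027 to 0.246 with a library left out, negative only without control replicate 1 (exact permutation p = 0.6, range 0.5 to 0.933). For Snap25 the exact p was 0.0667 to 0.1, the smallest that designs with a library left out allow. Depth is unknown from TPM, so low genes such as Rtbdn have no counting error attached.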

Other observations

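Genes on the X chromosome were more often lower in SMRT-KO than genes elsewhere, a pattern chosen after the values were seen and given as a description. At an adjusted p under 0.10, 63 of 517 tested X-linked genes were lower (12.2%) and 10 higher (1.93%), beside 527 of 13930 autosomal genes lower (3.78%), with single autosomes between 2.24% and 5.19%. The median log2 difference was -0.08 on the X and -0.03 on autosomes. The median of X-linked genes minus that of autosomal genes was -0.016, -0.066 and -0.037 in SMRT-KO libraries, against -0.008, 0.047, 0.054 and 0.000 in control libraries, so the groups did not overlap. In amygdala NCoR1-KO it was -0.012, 0.024 and 0.016. The shift was not particular to amygdala SMRT-KO. In hippocampus it was -0.016, -0.039 and 0.003 in SMRT-KO and -0.037, 0.002 and -0.018 in NCoR1-KO. Hippocampus controls, at 0.005, 0.049, 0.013 and 0.025, all lay above both knockouts. The median log2 difference of hippocampus SMRT-KO from control was -0.07 on the X and -0.01 on autosomes. None of the X-linked genes passed at 0.05. Of 4 tested genes on the Y chromosome 0 passed at 0.05 and 1 at 0.10, beside 7.03% of all tested genes. The sample titles name no sex of the animals, and the part of sex in this pattern was not tested. Fhl1, a LIM domain protein, was at 136, 104 and 124 TPM in SMRT-KO, against 176, 163, 167 and 156 TPM in control (-0.45 ± 0.08, limma adjusted p = 0.0572). Suv39h1, a histone methyltransferase of heterochromatin, was at 32.9, 26.1 and 30.8 TPM in SMRT-KO, against 39.5, 41.2, 41.1 and 36.1 TPM in control (-0.39 ± 0.08, limma adjusted p = 0.0572).

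Genes higher in SMRT-KO at an adjusted p under 0.10 were longer than those lower. Their median span was 59198 bases, against 21152 bases for the genes lower and 24852 bases for all tested genes. Of the 20% of genes with the longest transcripts 5.16% were higher, beside 1.90% of the 20% with the shortest. The median log2 deviation of the longest minus that of the shortest was 0.07, 0.03 and 0.05 in SMRT-KO libraries, against -0.03, 0.04, 0.06 and 0.03 in control libraries, so the groups overlap, and it was -0.23 in NCoR1-KO 1.

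Interneuron markers went both ways, 11 of 21 above control with a median of 0.05 and 0 past 0.05. At 0.10 2 were higher and 0 lower, beside 2.93% and 4.10% of all tested genes. Pvalb, a calcium buffer of fast-spiking interneurons, was at 36.1, 101 and 60.8 TPM in SMRT-KO, against 26.1, 14.6, 22.5 and 29.9 TPM in control (1.39 ± 0.31, limma adjusted p = 0.0611). It had the largest log2 difference of that list. SMRT-KO 2, where it was highest, also had the highest oligodendrocyte score, 0.93, and cortical layer score, 0.41. Foxp1, a transcription factor of striatal and cortical projection neurons, was at 57.3, 76.6 and 77.7 TPM in SMRT-KO, against 45.5, 22.9, 39.8 and 39.2 TPM in control (0.95 ± 0.21, limma adjusted p = 0.0582). The part of these scores in the levels of Pvalb and Foxp1 was not tested.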
